A study of Mus musculus with 9 samples.

Results

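The regions described here were called open in the Tbx1-Cre control libraries and in no other library of the series. Peaks of all 9 ATAC-seq lists on chromosomes 1 to 19 and X were merged where they overlapped, which gave 73301 regions. A region was chosen by its peak calls: it had to overlap, by at least 1 bp, a peak in each of the 3 Tbx1-Cre Ctrl libraries and no peak in any of the 6 others. In all, 2270 regions met this rule, 3.10% of the merged regions and 7.79% of the 29141 regions with a peak in all 3 Ctrl libraries. They are called Ctrl-only regions below. Because the calls of all 9 lists selected them, their presence in Ctrl and absence elsewhere is not a finding, and no test was made on it.

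ATAC-seq cuts accessible DNA with a transposase, and a peak is a stretch with many cuts. Cells positive for GFP were sorted at E9.5 from embryos of the Swiss Webster strain, which were pooled, and each group had 3 libraries. All embryos carried a GFP reporter at the Rosa26 locus that Cre recombinase switches on, so that GFP marks cells in which Cre is or was active. The Mesp1-Cre Ctrl embryos were Mesp1Cre;Rosa26-GFPflox/+, with Cre at the gene of an early mesoderm factor. The Tbx1-Cre Ctrl embryos were Tbx1Cre;Rosa26-GFPflox/+, with Cre at the Tbx1 locus. The Tbx1-Cre cKO embryos were Tbx1Cre/flox;Rosa26-GFPflox/+, with the Cre allele over a floxed allele that the same Cre inactivates. Since Cre occupies the Tbx1 locus, the Tbx1-Cre Ctrl embryos are themselves heterozygous for Tbx1. The labels name the pharyngeal apparatus and heart as the tissue, with the back added for both Tbx1-Cre groups, whereas the methods of the study describe a pharyngeal apparatus taken without the heart. Lineage and dissection therefore cannot be told apart when Tbx1-Cre and Mesp1-Cre libraries are set side by side.

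Tbx1 encodes a T-box transcription factor, and loss of a copy of it is a main cause of the heart and pharyngeal defects of 22q11.2 deletion syndrome. It is expressed in the mesoderm, endoderm and ectoderm of the pharyngeal apparatus and in the otic vesicle, while Mesp1-Cre marks mesoderm. Much open chromatin at promoters is shared by all cell types, whereas distal elements such as enhancers tend to differ between tissues.

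The sequences that follow are plus strand of the mm9 (NCBIM37) reference, written 5′ to 3′. In the 200 bp windows, matches to the motifs searched are in capitals. The first 3 are the central 200 bp of the Ctrl-only regions with the widest peaks among those at least 10 kb from every Mesp1-Cre and cKO peak, each named by the nearest protein-coding gene. Capitals mark a homeodomain and a TEAD match in the Otor region and a grainyhead and a TEAD match in the Slc26a7 region, and the Ankrd55 region held no match.
Otor region, chr2:143009345-143009544: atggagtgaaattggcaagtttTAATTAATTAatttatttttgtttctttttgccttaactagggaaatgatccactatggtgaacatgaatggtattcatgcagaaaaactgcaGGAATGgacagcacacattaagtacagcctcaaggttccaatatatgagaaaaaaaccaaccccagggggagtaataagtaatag
Slc26a7 region, chr4:14188743-14188942: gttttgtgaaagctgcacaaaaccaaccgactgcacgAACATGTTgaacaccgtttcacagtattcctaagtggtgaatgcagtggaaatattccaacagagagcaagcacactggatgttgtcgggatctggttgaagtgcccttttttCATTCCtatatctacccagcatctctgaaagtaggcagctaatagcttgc
Ankrd55 region, chr13:113065693-113065892: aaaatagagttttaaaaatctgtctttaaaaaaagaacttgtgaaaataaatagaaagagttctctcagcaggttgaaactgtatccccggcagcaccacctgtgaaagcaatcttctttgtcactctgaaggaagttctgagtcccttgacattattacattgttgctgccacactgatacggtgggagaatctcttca
Next are the central 200 bp of Ctrl-only regions near 6 genes of the developmental lists used below. Each lies within 4 kb of an annotated transcript start of a regulator of placode, epithelium, pouch, crest or muscle, or of a muscle gene. For Trp63 and Sox9 that start lies inside the gene, and the Sox9 region lies past the downstream end of the gene. Capitals mark SP/KLF and homeodomain matches near Neurog1, a forkhead match near Pax1, a homeodomain match near Sox9, the short T-box core near Tcf21, and TEAD, PBX-HOX, SOX and forkhead matches near Tnni1. The Trp63 window held none of the motifs.
Neurog1 region, chr13:56353581-56353780: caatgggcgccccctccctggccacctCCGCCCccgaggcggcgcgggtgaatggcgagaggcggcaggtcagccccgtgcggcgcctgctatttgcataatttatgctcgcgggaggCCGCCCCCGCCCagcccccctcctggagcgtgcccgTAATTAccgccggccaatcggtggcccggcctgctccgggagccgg
Trp63 region, chr16:25803083-25803282: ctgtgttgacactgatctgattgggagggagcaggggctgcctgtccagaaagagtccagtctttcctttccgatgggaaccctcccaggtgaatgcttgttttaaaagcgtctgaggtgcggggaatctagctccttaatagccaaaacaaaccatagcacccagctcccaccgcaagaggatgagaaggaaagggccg
Pax1 region, chr2:147185601-147185800: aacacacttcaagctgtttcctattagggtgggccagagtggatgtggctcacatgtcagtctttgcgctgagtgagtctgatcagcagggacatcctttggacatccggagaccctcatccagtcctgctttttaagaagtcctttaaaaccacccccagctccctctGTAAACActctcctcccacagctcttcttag
Sox9 region, chr11:112649526-112649725: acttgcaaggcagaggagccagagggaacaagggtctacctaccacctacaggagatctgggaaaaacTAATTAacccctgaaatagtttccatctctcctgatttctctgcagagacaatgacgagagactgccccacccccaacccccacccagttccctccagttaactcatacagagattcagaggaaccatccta
Tcf21 region, chr10:22537614-22537813: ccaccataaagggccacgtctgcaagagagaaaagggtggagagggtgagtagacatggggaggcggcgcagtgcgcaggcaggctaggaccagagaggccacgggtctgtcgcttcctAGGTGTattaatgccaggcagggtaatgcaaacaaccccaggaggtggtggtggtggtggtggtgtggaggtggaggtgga
Tnni1 region, chr1:137677888-137678087: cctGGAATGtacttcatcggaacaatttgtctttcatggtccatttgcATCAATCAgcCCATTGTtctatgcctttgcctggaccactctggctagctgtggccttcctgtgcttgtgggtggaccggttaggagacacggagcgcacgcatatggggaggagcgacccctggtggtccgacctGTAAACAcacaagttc
Finally, 60 bp are shown around the motif in each of the 7 Ctrl-only regions that held the T-box motif AGGTGTGA or its reverse complement TCACACCT. Here only that motif is in capitals, and matches to the other motifs searched are left in small letters.
Gm6878 region, chr14:68076637-68076696: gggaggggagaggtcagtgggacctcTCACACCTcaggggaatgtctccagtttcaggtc
Rbm20 region, chr19:53774281-53774340: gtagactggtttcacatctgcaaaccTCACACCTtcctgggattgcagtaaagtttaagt
Musk region, chr4:58352425-58352484: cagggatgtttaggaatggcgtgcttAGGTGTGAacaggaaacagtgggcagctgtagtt
Mylip region, chr13:45347732-45347791: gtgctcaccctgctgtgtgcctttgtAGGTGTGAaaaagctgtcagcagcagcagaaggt
Olfm4 region, chr14:80641900-80641959: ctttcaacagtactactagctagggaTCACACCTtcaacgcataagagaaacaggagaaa
Id2 region, chr12:26021126-26021185: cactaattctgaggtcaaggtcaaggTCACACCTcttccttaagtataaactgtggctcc
Ryr3 region, chr2:112823429-112823488: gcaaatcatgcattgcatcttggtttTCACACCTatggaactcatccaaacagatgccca

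The lists differed in size, which bears on every count below. The Tbx1-Cre Ctrl lists held 43298 to 49490 peaks over 23.6 to 26.6 Mb, the Mesp1-Cre Ctrl lists 25485 to 42650 peaks over 12.9 to 22.1 Mb, and the cKO lists 19772 to 29251 peaks over 9.72 to 14.5 Mb. Every Ctrl list was thus longer than every other list. The 42650 peaks are those of Mesp1-Cre replicate 1, a length that the paper's summary of its ATAC-seq samples does not give. That summary has a shorter list in its place, whereas the lengths of the other lists match. Without this library 3276 regions met the rule. Read depth is unknown here and only list length stands in for it, and where no peak was called the chromatin was not shown to be closed. With each list cut to the same number of its widest peaks, 278 regions met the rule. That setting evens out list length and also drops narrow peaks, so the part of list length alone was not tested. In sorted bulk cells, fewer cells of a type and less signal per cell cannot be told apart. Of the 73301 merged regions, 484 (0.660%) were called in the 3 Mesp1-Cre libraries alone and 4 (0.00546%) in the 3 cKO libraries alone. A further 624 (0.851%) had peaks in all Ctrl and all Mesp1-Cre libraries and none in cKO, and 167 (0.228%) had peaks in all Ctrl and all cKO libraries and none in Mesp1-Cre. All 9 libraries shared 13644 regions (18.6%). These last 3 sets are the classes with which the Ctrl-only regions are compared.

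The Tbx1 gene itself (ENSMUSG00000009097.8, chr16:18581806-18588113, minus strand) had no Ctrl-only region in its body or within 10 kb. The merged region over its start, chr16:18587984-18589272, had Ctrl peaks of 641, 622 and 476 bp and no cKO peak, the nearest cKO peak lying 12558 bp away. It was not chosen because Mesp1-Cre replicates 1 and 2 also had peaks there, of 394 and 305 bp, whereas replicate 3 had none. The 3 Ctrl peaks were all wider than the 2 Mesp1-Cre peaks.

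Ctrl-only regions were marked by narrow peaks. Across the 2270 regions, peaks had a median width of 342.0 bp in Ctrl replicate 1, 382.5 bp in replicate 2 and 443.0 bp in replicate 3, against 658.0, 630.0 and 658.0 bp over all regions with 3 Ctrl peaks. In each of the 3 libraries the median Ctrl-only peak was narrower. The mean of the 3 widths had a median of 402.7 bp, with 5% of regions below 244.7 bp and 5% above 651.2 bp. The same median was 478.7 bp for the regions shared with Mesp1-Cre, 646.3 bp for those shared with cKO and 836.0 bp for those of all 9 libraries. The smallest width in the Ctrl lists is 200 bp, and 157 (6.92%), 148 (6.52%) and 70 (3.08%) of the Ctrl-only regions sat at it in the 3 libraries, against 1.71%, 2.23% and 0.899% over all regions with 3 Ctrl peaks. Peaks of 1000 bp or more were rare, with 16, 4 and 10 Ctrl-only regions. The order of the regions by width was shared only in part. Spearman's rho across the 2270 regions was 0.166 for replicates 1 and 2, 0.203 for 1 and 3 and 0.404 for 2 and 3, a description across regions with no test. The widest of the 3 peaks was found in replicate 3 for 923 regions, in replicate 1 for 714 and in replicate 2 for 633.

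**Figure D1:**
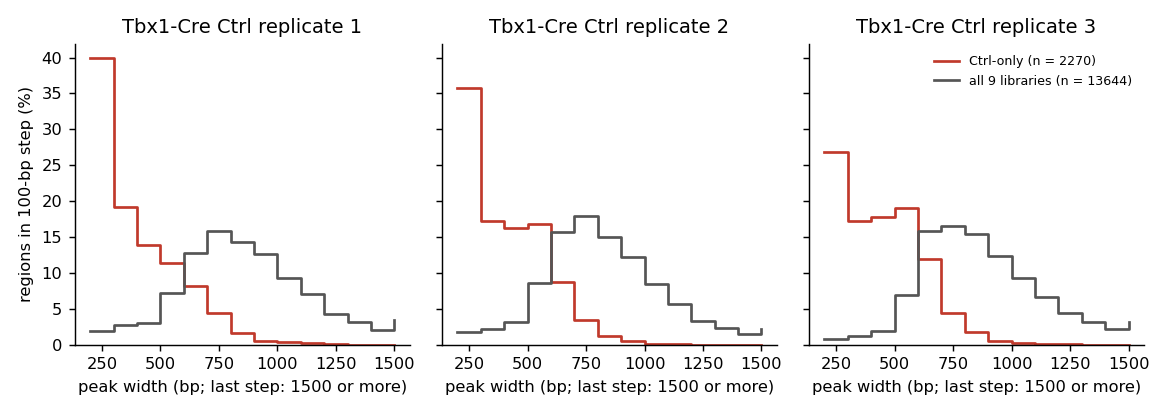
Share of regions (y axis, %) by peak width (x axis, bp, in steps of 100 bp) in each of the 3 Tbx1-Cre Ctrl libraries, for Ctrl-only regions and for regions called in all 9 libraries. The Ctrl-only regions peak in the narrowest step in every library, with medians of 342.0, 382.5 and 443.0 bp.

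The edge of the rule was crowded. Just outside it, 2423 regions had peaks in all 3 Ctrl libraries and in exactly 1 other library, more than the 2270 inside. Of these, 998 had their additional peak in Mesp1-Cre replicate 1 and 820 in cKO replicate 1, the longest lists of their groups, and the median width of the additional peak was 281.0 and 263.0 bp. The remaining 4 libraries accounted for 109 to 254 regions each. The median Ctrl width was 435.7 bp just outside the rule and 402.7 bp inside it. On the other side, 5352 regions were called in 2 Ctrl libraries and 15482 in 1 Ctrl library with no peak elsewhere, at median Ctrl widths of 325.8 and 245.0 bp. By the rule, no Ctrl-only region overlaps a peak of another group, and 2082 (91.7%) were at least 1 kb and 1206 (53.1%) at least 10 kb from the nearest Mesp1-Cre or cKO peak. The same shares were 85.9% and 51.6% of the 20834 regions called in 1 or 2 Ctrl libraries and nowhere else, so that such distances are common to regions without other peaks. Of the Ctrl-only regions, 19 (0.837%) were within 100 bp of such a peak. The median distance was 12862 bp to a Mesp1-Cre peak and 18418 bp to a cKO peak.

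A library left out of the rule gives a view that the choice did not use. The rule was applied to 8 libraries, and the share of the resulting regions with a peak in the ninth was counted. Regions chosen without Ctrl replicate 1 had a peak in it in 46.0% of cases (2287 of 4977), against 85.1% of all regions with a peak in the other Ctrl libraries. For Ctrl replicate 2 the shares were 56.4% (2292 of 4065) and 86.2%, and for Ctrl replicate 3 they were 72.0% (2281 of 3170) and 92.7%. Over all regions merged from the other 8 lists, the shares with a peak in these libraries were 60.3%, 54.6% and 59.5%, so that recurrence was below that level in replicate 1, near it in replicate 2 and above it in replicate 3. In the left-out Mesp1-Cre libraries the shares were 30.7%, 4.62% and 5.53%, and in the left-out cKO libraries 26.6%, 10.1% and 4.62%. Over all regions merged without them they were 52.6%, 32.6% and 38.4% in Mesp1-Cre and 37.0%, 30.1% and 25.1% in cKO libraries, so that the Ctrl libraries lay above the 6 others there too. The highest shares of the other groups fell in replicate 1 of each, which had the longest lists. The corresponding shares of all regions with 3 Ctrl peaks were 66.5% to 83.4% in Mesp1-Cre and 58.5% to 76.3% in cKO libraries.

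**Figure D2:**
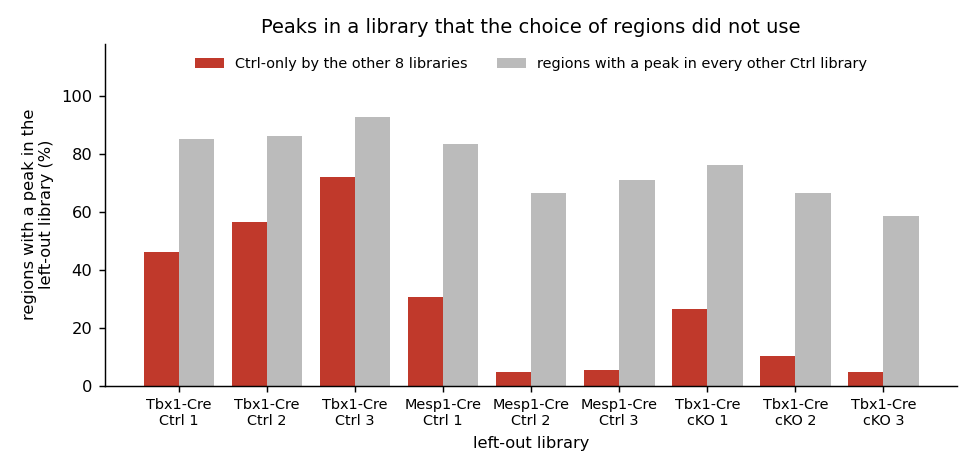
For each library on the x axis, the share (y axis, %) of regions with a peak in it among the regions that the rule picks from the other 8 libraries (red) and among all regions with a peak in every other Ctrl library (grey). Red bars reach 46.0% to 72.0% in the Ctrl libraries and 4.62% to 30.7% in the 6 others, below the grey bar throughout.

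Ctrl-only regions were mostly far from promoters. Of the 2270 regions, 172 lay within 1 kb of an annotated transcription start site (TSS), or 7.58% (95% Wilson interval 6.56 to 8.74%). These intervals cover counting error only and treat neighbouring regions as independent. The share was 4.19% (2.05 to 8.40%) in the 167 regions shared with cKO, 17.6% (14.8 to 20.8%) in the 624 shared with Mesp1-Cre, 76.9% in the regions of all 9 libraries and 26.0% over all merged regions. It was 7.62% in the 5352 regions called in 2 Ctrl libraries and nowhere else, and 11.0% in the 15482 called in 1 alone. In the 2423 regions with peaks in all 3 Ctrl libraries and 1 other it was 11.1%. A low share was thus common to regions with few or no peaks outside Ctrl. The Ctrl-only interval lay below that of the regions shared with Mesp1-Cre and overlapped that of the regions shared with cKO. Ctrl-only regions and regions of all 9 libraries also stood apart within steps of peak width. The widest step has no upper limit and held 13052 of the 13644 regions of all 9 libraries, so widths are not matched in it. The narrowest step held 91 of them. For mean Ctrl widths under 350 bp, from 350 to 500 bp and of 500 bp or more, the shares within 1 kb of a TSS were 8.79%, 7.29% and 6.36% in Ctrl-only regions and 41.8%, 53.1% and 78.0% in regions of all 9 libraries. The median distance to a TSS was 24380 bp, against 19870 bp for the regions shared with Mesp1-Cre and 32744 bp for those shared with cKO. By the annotation at their midpoint, 1097 regions (48.3%) were intergenic, 1069 (47.1%) intronic, 43 (1.89%) in a UTR, 36 (1.59%) in a coding exon and 25 (1.10%) in an exon of a non-coding transcript. Over all merged regions 45.0% were intergenic, 40.1% intronic, 8.64% in a UTR and 4.53% in a coding exon. The intergenic shares were close, the intronic share was higher in Ctrl-only regions, and the UTR and coding exon shares were lower.

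**Figure D3:**
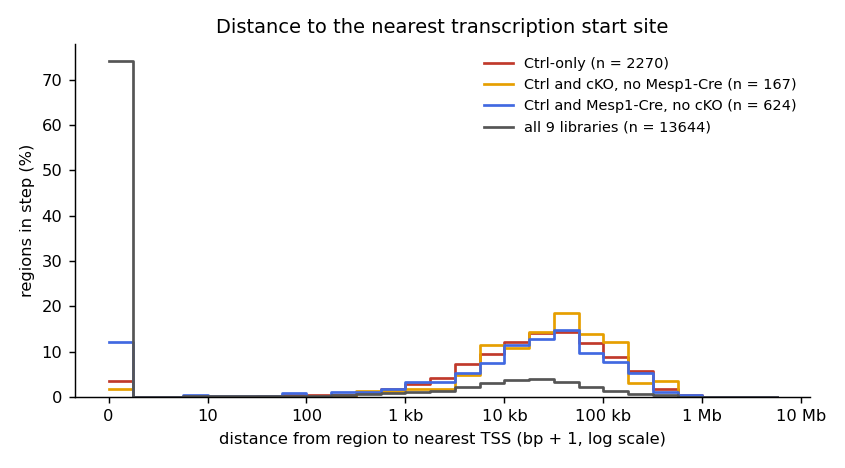
Share of regions (y axis, %) by distance to the nearest TSS (x axis, bp + 1, log scale) for Ctrl-only regions and the 3 comparison classes. Regions of all 9 libraries pile up at 0, whereas Ctrl-only regions have 3.52% there and a median of 24380 bp. The class without cKO peaks has 12.0% at 0 and a median of 19870 bp, and the class without Mesp1-Cre peaks has 1.80% and 32744 bp.

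The regions were found on every chromosome. They numbered from 0.661 per Mb on chromosome 17 to 1.14 per Mb on chromosome 9 among the autosomes, and 0.210 per Mb on the X chromosome, which held 35. Relative to the regions with 3 Ctrl peaks, which remove part of the difference in gene content, Ctrl-only regions made up 5.24% to 9.57% on the autosomes and 5.01% on the X. The share within 1 kb of a TSS was lower than in the regions of all 9 libraries on 20 of 20 chromosomes and lower than in the regions shared with Mesp1-Cre on 17. Few were close together. Runs of neighbours within 10 kb numbered 48 and held 99 regions (4.36%), with at most 3 in a run, and within 50 kb there were 185 runs with 399 regions (17.6%).

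In sequence, Ctrl-only regions were poorer in GC and CpG than the regions of all 9 libraries. The median GC content of the central 200 bp was 49.5%, with 5% of regions below 39.5% and 5% above 59.5%. It was 51.5% in those shared with Mesp1-Cre, 64.5% in those of all 9 libraries and 52.0% over all merged regions. The regions shared with cKO were close to the Ctrl-only ones, with 25th and 75th percentiles of 46.8% and 54.0% against 45.5% and 53.5%. Among distal regions alone the gap to the regions of all 9 libraries was smaller: from the narrowest to the widest width step the medians were 49.0%, 49.5% and 49.0% for Ctrl-only regions and 49.5%, 55.0% and 55.5% for the others. In 287 Ctrl-only regions (12.6%) the window held no CpG, and in 416 (18.3%) it held 5 or more. The latter share was 19.8% in the regions shared with cKO, 35.4% in the regions shared with Mesp1-Cre and 87.1% in those of all 9 libraries. In the class shared with Mesp1-Cre 5% of regions exceeded 69.5% GC, against 59.5% for Ctrl-only regions and 59.0% for those shared with cKO. The window near Neurog1 printed above, at 73.5% GC with 23 CpG, lay far outside the usual range.

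**Figure D4:**
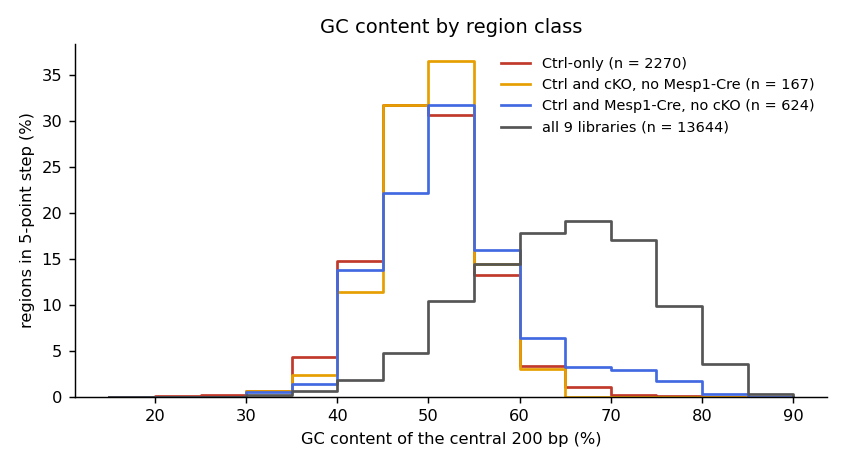
Share of regions (y axis, %) by GC content of the central 200 bp (x axis, %, in steps of 5 points) for Ctrl-only regions and the 3 comparison classes. Ctrl-only regions centre on 49.5% and regions of all 9 libraries on 64.5%.

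Motifs of 17 kinds were counted in the central 200 bp on both strands. A match is a description of the letters and not a bound site. The T-box motif AGGTGTGA, the kind of site that TBX1 and its relatives bind, was found in 7 Ctrl-only regions, or 0.308% (0.149 to 0.635%), whose windows are printed above. The share was 0.599% in the regions shared with cKO (167 regions), 0.641% in those shared with Mesp1-Cre and 0.591% over all merged regions. It was 0.271% (0.197 to 0.374%) in those of all 9 libraries and 0.405% in all regions with 3 Ctrl peaks. At these counts a difference between the classes was not detectable. The shorter core AGGTGT, which every longer match contains, was more frequent. Among regions over 1 kb from any TSS it was found in 104 of 2098 Ctrl-only regions, or 4.96% (4.11 to 5.97%), against 10.3% (7.97 to 13.2%) of those shared with Mesp1-Cre and 8.31% of all merged distal regions. It was found in 6.25% (3.43 to 11.1%) of those shared with cKO, 6.18% (5.39 to 7.07%) of those of all 9 libraries and 6.60% of all distal regions with 3 Ctrl peaks. The first 2 of these intervals overlapped that of the Ctrl-only regions. The intervals of the Ctrl-only regions and of the class with Mesp1-Cre but no cKO peaks did not overlap. From the narrowest to the widest of the 3 width steps described above, the core was found in 6.23%, 4.79% and 3.50% of distal Ctrl-only regions and in 7.21%, 9.39% and 12.6% of that class, so that the gap was small for narrow peaks and wide for broad ones.

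The 7 regions with the full T-box motif had mean Ctrl widths of 307.7 to 602.3 bp and lay 22182 to 241263 bp from a TSS. The region in an intron of Musk, the receptor kinase of the neuromuscular junction, had peaks of 593, 319 and 535 bp. The region in an intron of Ryr3, a calcium release channel, had peaks of 224, 414 and 587 bp and no Mesp1-Cre peak within 182530 bp. The region in an intron of Rbm20, a splicing factor of heart muscle, had peaks of 600, 345 and 468 bp. The other four were intergenic.

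GATA sites, AGATAA, which the GATA factors of heart, endoderm and blood recognise, showed the widest gap between the classes among the motifs plotted apart from SP/KLF. They were found in 7.82% (6.74 to 9.04%) of distal Ctrl-only regions, 3.12% (1.34 to 7.11%) of those shared with cKO and 16.3% (13.4 to 19.8%) of those shared with Mesp1-Cre, against 10.7% of all merged distal regions. Regions of all 9 libraries held them in 5.77% and all distal regions with 3 Ctrl peaks in 7.79%, the latter close to the Ctrl-only share. The gap to the class shared with Mesp1-Cre was present at every width, with 8.36%, 7.30% and 7.96% of Ctrl-only and 17.1%, 16.6% and 15.8% of shared regions from the narrowest to the widest of the 3 width steps. SOX sites, ACAATGG, went the other way, at 2.96% (2.31 to 3.77%) of distal Ctrl-only regions and 0.973% (0.416 to 2.26%) of those shared with Mesp1-Cre, beside 2.32% of all merged distal regions. Forkhead sites, TGTTTAC, were found in 5.10% (4.24 to 6.13%) of distal Ctrl-only regions, 3.70% (2.38 to 5.70%) of those shared with Mesp1-Cre, 3.23% (2.67 to 3.91%) of those of all 9 libraries and 3.76% of all merged ones. The interval overlapped that of the class shared with Mesp1-Cre and not that of the regions of all 9 libraries.

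TEAD sites, GGAATG, were frequent in all classes, with 315 of 2098 distal Ctrl-only regions (interval 13.5 to 16.6%) and 14.5% to 16.0% of the 3 other classes (13.9% of all merged distal regions). AP-1 sites, TGANTCA, which FOS and JUN dimers bind, were found in 4.81% of them, against 4.25% to 5.62% of the other classes and 5.66% of all. The homeodomain core TAATTA was found in 4.48% (3.68 to 5.45%), against 6.42% (4.61 to 8.88%) of the regions shared with Mesp1-Cre and 4.53% of all. The E-box CAGCTG, a site of basic helix-loop-helix factors, was found in 18.3% of distal Ctrl-only regions, below the 25.3% (21.7 to 29.2%) of the regions shared with Mesp1-Cre and near the 18.0% of all. The AP-2 site GCCNNNGGC was found in 6.39% (5.42 to 7.52%), below the 14.4% (9.77 to 20.6%) of the 160 distal regions shared with cKO and near the 7.13% of all. The SP/KLF box GGGCGG was found in 4.86% of distal Ctrl-only regions and 23.5% of distal regions of all 9 libraries (8.05% of all). The core of the CTCF site, which marks domain boundaries, was found in 4 distal Ctrl-only regions, or 0.191% (0.0742 to 0.489%), against 0.780% (0.653 to 0.932%) of all distal regions with 3 Ctrl peaks and 0.631% of all. Grainyhead sites, AACNNGTT, were found in 2.19% of distal Ctrl-only regions and 2.82% of all, the p63 site CATGCCC in 2.91% and 2.78%, and the PBX-HOX site TGATTNAT in 1.91% and 2.85%. The site TCAGGTTTC of sine oculis homeobox factors was found in 0.620% and 0.666%, and the HNF1 site in no Ctrl-only region and 0.0147% of all. For these the Ctrl-only share lay near that of all merged distal regions or below it.

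**Figure D5:**
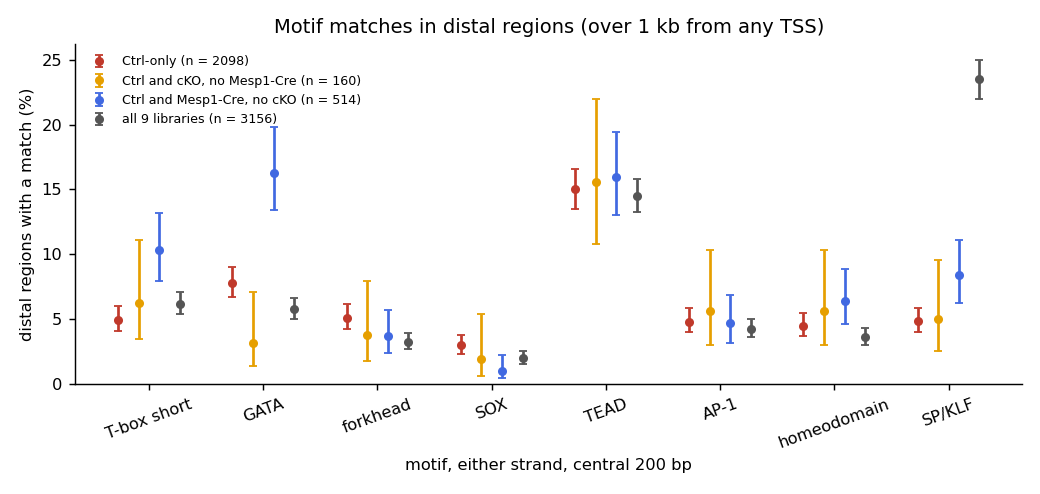
Share of distal regions with a match (y axis, %) for 8 of the motifs (x axis) in Ctrl-only regions and the 3 comparison classes; points are shares and bars 95% Wilson intervals. The Ctrl-only regions stand at 7.82% for GATA and 4.96% for the short T-box core, against 16.3% and 10.3% in the regions shared with Mesp1-Cre.

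The 10 widest Ctrl-only regions far from any other peak were nearest to genes outside the developmental lists used below. The region nearest to Otor, whose product otoraplin is secreted in the inner ear, had peaks of 1089, 1177 and 1242 bp in the 3 Ctrl libraries. It is intergenic, 105236 bp from the Otor start, 23093 bp from the nearest Mesp1-Cre peak and 88893 bp from the nearest cKO peak. All 3 peaks thus exceeded 1000 bp, in a class whose median is 402.7 bp. The region nearest to Slc26a7, an anion transporter, had peaks of 1024, 1037 and 862 bp, 254673 bp from its start. The region nearest to Ankrd55 had peaks of 1233, 824 and 1038 bp, 12866 bp from its start. At chr7:139378763-139379818, in an intron of Fgfr2, a receptor for fibroblast growth factors, the peaks were 833, 871 and 792 bp wide. The 3 libraries were closest together here among these 4 regions, with an SD of 39.5 bp around a mean of 832.0 bp. Another 5 of the 10 widest clear regions had mean widths of 770.0 to 862.7 bp. They lay near Cobl, an actin nucleator, in an intron of Cib4, over the start of Fam134b, a receptor for autophagy of the endoplasmic reticulum, 253505 bp from Tgfbr2, a TGF-beta receptor, and in an intron of Gpc6, a glypican. The Fam134b region, chr15:25870166-25871175, had peaks of 830, 733 and 942 bp and was the only 1 of the 10 within 1 kb of a TSS.

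Each Ctrl-only region was assigned to the protein-coding gene with the nearest TSS within 100 kb. Every annotated transcript start of a gene counted, including any inside the gene. In this way 1666 regions (73.4%) were assigned to 1442 of 22208 genes (6.49%), and 604 (26.6%) lay farther away. Most genes had a single region: 1251 had 1, 166 had 2 and 25 had 3 or more. Of all assigned regions with 3 Ctrl peaks, 6.47% were Ctrl-only, which is the background for the genes below.

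Odz4, a teneurin of cell contact and neural wiring, had the most, with 6 of its 22 regions with 3 Ctrl peaks. Rgs3, a regulator of G protein signalling, had 5 of 16, and both loci are large. Lin28b, an RNA-binding protein that blocks let-7 maturation in early development, had 4 of 6. Its 4 regions lay within the gene, with Ctrl peaks of 244, 270 and 250 bp at the narrowest and 400, 632 and 524 bp at the widest, and the latter was 214 bp from a Mesp1-Cre peak. Zbtb16, a zinc finger factor, had 4 of 7, all intronic, and 2010111I01Rik had 4 of 9. A further 20 genes had 3 each, of which the 5 with the widest mean Ctrl peaks were Ppm1h (3 of 12), Tspan18 (3 of 10), Tbc1d1 (3 of 9), Btg4 (3 of 3) and Dennd2a (3 of 7). The widest region of Ppm1h, a phosphatase, had peaks of 549, 1053 and 624 bp, and its next had 685, 653 and 688 bp. In the former replicate 2 stood well above the other libraries, and in the latter all 3 were close.

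Btg4, an adaptor of mRNA decay in oocytes, was the gene with the most Ctrl-only regions and no other region with 3 Ctrl peaks. Its nearest region, chr9:50920834-50921581, had peaks of 481, 599 and 748 bp, 2898 bp from the Btg4 start. That region was 9618 bp from Mir34c and 9083 bp from Mir34b, microRNA genes known from multiciliated cells. The other Btg4 regions had peaks of 281, 202 and 521 bp and of 382, 225 and 375 bp. In all, 201 of the 1442 genes (13.9%) had Ctrl-only regions and no other region with 3 Ctrl peaks, and 9 of them had 2 or more. Besides Btg4 these were Adam32, Cldn2, Ift80, Il1r2, Itih3, Ptprt, 4933406P04Rik and Gm10845. Of the 26 listed genes below with a Ctrl-only region, 3 were among the 201, namely Myod1, Tnni1 and Trp63. This share was near the 13.9% over all genes.

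The developmental lists were described by the share of their regions with 3 Ctrl peaks that were Ctrl-only, beside the 6.47% over all genes. Of 251 distinct listed genes, 26 (10.4%) had a Ctrl-only region, against 6.49% of all genes, and among genes with any region with 3 Ctrl peaks the shares were 12.8% of 203 and 10.1% of 14299. The otic and placode list had the highest share, 6 of 42 regions or 14.3% (6.72 to 27.8%), followed by endothelium and blood with 5 of 37 or 13.5% (5.91 to 28.0%) and epithelial identity with 3 of 29 or 10.3% (3.58 to 26.4%). Of all 11 intervals only that of the otic and placode list lay above the value over all genes. For regions at least 1 kb from other peaks that list stood at 5 of 42 or 11.9%, and the lower bound of 5.19% was under the 5.86% over all genes, while the lower bound of endothelium and blood (5.91%) was just above it. Over gene bodies with 10 kb on either side the otic and placode list had 4 of 36 or 11.1% (4.41 to 25.3%), which held the 5.99% over all genes. The cardiac sarcomere list had 1 of 11 (9.09%), branchiomeric muscle 3 of 36 (8.33%), T-box genes 2 of 31 (6.45%), pharyngeal endoderm 2 of 34 (5.88%), signalling ligands 3 of 51 (5.88%) and neural and neural crest 2 of 38 (5.26%). The second heart field and multilineage progenitor list, which holds the genes of the mesodermal progenitors that Tbx1 acts in, had 2 of 62 or 3.23% (0.889 to 11.0%). The ribosomal protein genes, taken as a reference with mostly shared promoters, had 1 of 72 or 1.39% (0.246 to 7.46%). Over distal regions the background rose to 12.4%, beside 5 of 28 or 17.9% (7.88 to 35.6%) for otic and placode and 5 of 30 or 16.7% (7.34 to 33.6%) for endothelium and blood, whose intervals held it. The order of the lists was not stable: without Ctrl replicate 1 the endoderm list stood at 18.6% and endothelium and blood at 16.3%, beside 11.1% over all genes. The lists share a few genes, and no correction was made for the 11 lists.

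Among placodal genes, Neurog1, a bHLH factor that starts sensory neurogenesis, had a Ctrl-only region over its start, chr13:56353414-56353947. Its peaks were 399, 433 and 465 bp wide (mean 432.3 ± 33.0 bp, SD, n = 3), and the nearest Mesp1-Cre and cKO peaks were 30307 and 27120 bp away. The 3 libraries were close together. Lmx1a, a LIM homeodomain factor of the inner ear and midbrain, had 2, with peaks of 779, 630 and 611 bp in its intron and of 455, 247 and 222 bp upstream, the latter 228 bp from a Mesp1-Cre peak. Pax2, a paired-box factor of the otic placode, had an intronic region with peaks of 766, 331 and 322 bp, 68503 bp from any Mesp1-Cre peak. Here the peak of replicate 1 was wider than the other peaks together. Eya1, a transcriptional cofactor of placodes, had an intronic region with peaks of 275, 446 and 450 bp.

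Among epithelial genes, Trp63, the p63 factor of stratified epithelia, had an intronic region 920 bp from a TSS, chr16:25802922-25803443, with peaks of 222, 391 and 498 bp. No Mesp1-Cre peak was found within 222222 bp and no cKO peak within 200324 bp. It was the most isolated region at a listed gene, although its peak in replicate 1 was close to the smallest width. Krt19, a keratin of simple epithelia, had a region with peaks of 729, 310 and 477 bp, 4736 bp from a cKO peak. Grhl2, a grainyhead factor of epithelial junctions, had a region with peaks of 350, 231 and 295 bp, 17176 bp from its start.

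In the pharyngeal endoderm list, Pax1, a marker of the pouches, had a region 1960 bp from its start, chr2:147185471-147185930, with peaks of 236, 377 and 460 bp. Pax9, its paralogue, had an intronic region, chr12:57793659-57794258, with peaks of 568, 211 and 317 bp. Both lay about 2 kb from peaks of the other groups, at 1977 bp for Pax1 and 2295 bp for Pax9. In the neural and neural crest list, Sox9, an HMG-box factor of crest and cartilage, had a region with peaks of 275, 334 and 346 bp. This region, chr11:112649385-112649866, lies past the downstream end of the gene (chr11:112643538-112649074, plus strand). The nearest annotated Sox9 transcript start, inside the gene, was 3584 bp away. Msx1, a homeobox factor of crest mesenchyme, had a region 80408 bp from its start with peaks of 311, 252 and 382 bp.

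Among muscle genes, Myod1, the bHLH regulator of skeletal muscle, had a region in its coding exon, 408 bp from its start, chr7:53632252-53632934. The peaks were narrow but alike, at 308, 266 and 305 bp, with none from the other groups within 18902 bp. Tcf21, a bHLH factor of branchiomeric muscle precursors, had an intronic region, chr10:22537458-22537969, with peaks of 446, 210 and 314 bp, 1717 bp from a cKO peak, and its window held the short T-box core. Ebf2, a helix-loop-helix factor, had a region 307 bp from a TSS with peaks of 648, 426 and 334 bp. It was 1378 bp from a Mesp1-Cre peak and 1349 bp from a cKO peak. Myod1, Ebf2 and Neurog1 each had a peak within 1 kb of a TSS in the 3 Ctrl libraries and in none of the 6 others. The rule chose their regions for such calls, and the share of all genes with this pattern was not counted. Tnni1, the slow skeletal troponin I also used by embryonic heart, had a region 1654 bp from its start, chr1:137677687-137678288, with peaks of 200, 201 and 543 bp. In replicates 1 and 2 these were at or next to the smallest width the lists hold.

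Of the second heart field list, Six2, a homeobox factor, had a region 97690 bp from its start with peaks of 726, 501 and 405 bp, and Foxc1, a forkhead factor of cardiac and vascular mesoderm, had a region with peaks of 561, 200 and 245 bp. Among endothelial and blood genes, Runx1, the regulator of definitive blood formation, had 2 intronic regions, with peaks of 984, 764 and 261 bp and of 274, 226 and 400 bp. In the former the libraries spread from 261 to 984 bp, the largest SD (370.6 bp) among the regions of listed genes. Kdr, the main VEGF receptor, had an intergenic region 98083 bp from its start, with peaks of 485, 315 and 262 bp. Its other region, in an intron, had peaks of 303, 254 and 253 bp. Erg, an ETS factor, had an intergenic region 32858 bp from its start, with peaks of 414, 281 and 413 bp. The T-box genes T, the brachyury factor, and Tbx15 had a region each, with peaks of 926, 304 and 271 bp and of 384, 510 and 283 bp. The former lay 25216 bp from the T start and the latter in an intron of Tbx15. Of the ligands, Igf2, a fetal growth factor, had 2 regions with peaks of 356, 200 and 664 bp and of 541, 279 and 546 bp. The region assigned to Jag1, a Notch ligand, lies in an intron of 2210009G21Rik, with even peaks of 652, 640 and 696 bp. It was 65722 bp from the nearest annotated Jag1 transcript start. The only reference gene with a Ctrl-only region was Rpl34, 73668 bp away, with peaks of 273, 262 and 474 bp.

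The lists themselves were called unevenly across libraries, which moves with the choice of regions. A peak within 1 kb of a TSS was found for 16, 13 and 14 of 30 epithelial genes in the 3 Ctrl libraries, 12, 7 and 7 in Mesp1-Cre and 9, 6 and 2 in cKO. Grhl1 and Krt8 had such a peak in all 9 libraries, and Krt5, Krt14 and Grhl3 in none. For the endoderm list the counts were 9, 7 and 8 of 20 genes in Ctrl, 6, 7 and 7 in Mesp1-Cre and 6, 4 and 3 in cKO, and Nkx2-1, Hhex and Shh had none in any library. For the second heart field list they were 22, 21 and 21 of 27 in Ctrl, 21, 18 and 21 in Mesp1-Cre and 18, 17 and 15 in cKO, with Isl1, Gata6 and Tbx20 called in all 9. For the sarcomere list they were 5, 5 and 5 of 15 in Ctrl, 6, 4 and 4 in Mesp1-Cre and 4, 4 and 4 in cKO, and Myh6, Myh7, Tnnt2 and Myl7 had none in any library. Fgf8 and Tbx5 had none in any library, Nkx2-5, Hand1 and Bmp4 had a called promoter in Mesp1-Cre replicate 3 alone, and Gata4 and Wnt11 had none in cKO. Each group thus called promoters of both the epithelial and the second heart field list. Over all 22208 genes the share with such a peak was 61.9% to 62.9% in Ctrl, 56.7% to 62.9% in Mesp1-Cre and 52.8% to 58.3% in cKO libraries. The 59 ribosomal genes had 56 to 59 called promoters in every library. The cKO lists were the lowest or tied for the lowest in each of the 4 developmental lists, in at least 1 library, and the part of list length in this was not tested.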

How the data were processed

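The 9 deposited peak lists give a chromosome, a start and an end for each peak and no score, height or p-value, so that the values used here are interval positions in bp as the authors deposited them. As the study's methods state, the authors removed adapters (cutadapt), aligned reads to mm9, kept unique concordant pairs, removed duplicates and mitochondrial reads and called peaks per library without pooling. The submitters' processing notes name Bowtie2 2.3.4.3 and MACS2 2.1.2.179. Starts of the Mesp1-Cre lists appear to be counted from 1, since their narrowest peak is 199 bp against 200 bp elsewhere, and they were used as deposited. Between 2 and 30 peaks per list, on other chromosomes, were left out.

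Groups were taken from the sample titles. Regions, distances and overlaps (minimum 1 bp) were computed in Python 3.11.15 with numpy 2.4.6 and pandas 2.3.3, intervals with scipy 1.17.1 and plots with matplotlib 3.10.9. Genes and sequence came from NCBIM37 and GENCODE, and widths are reported as mean ± SD of 3 libraries where given. Since the lists hold no counts, the count model of the study could not be used, and no test was made. Named genes were, by rule, those with any Ctrl-only region in the body of Tbx1 and 10 kb on either side, up to 4 genes per list, the 10 genes with most Ctrl-only regions (ties broken by the widest mean Ctrl peak) and the 10 regions with the widest narrowest peak at least 10 kb from other peaks. Genes named for T-box matches, for exclusive regions and for promoter peaks were chosen after their values were seen. The regions, gene lists and motifs were chosen with earlier results of these data known. The 17 motifs were searched as letters on both strands. The scripts were tested on simulated data. An item among the 10 widest regions is not reported here. The labels do not say whether replicates came from separate litters.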

Additional observations from a re-analysis of the deposited data

How the results depend on the processing

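Of 229 values recomputed under other settings, 195 stayed within the 95% interval of the reported value (for counts, within 1.5 times) and 34 moved. The cause was not tested unless stated. The number of Ctrl-only regions (2270) fell to 278 when each list was cut to an equal number of its widest peaks, and ranged from 2380 to 4977 without 1 library, with 4977 without Ctrl replicate 1 and 4065 without Ctrl replicate 2, each omission dropping a condition of the rule. The median GC of 49.5% was 48.5% with the intersection of the Ctrl lists, 50.5% when peaks had to cover at least 50% of a region and with the widest 75% of the peaks, 48.8% in a 400 bp window, and 47.5 to 50.5% without 1 library. The share within 1 kb of a TSS (7.58%) was 5.81% for starts of protein-coding genes, 12.3% within 2500 bp, 5.55% within 500 bp, 6.20% for regions at least 1 kb from every other peak, 10.3% with the intersection and with the 50% cover, and 6.31 to 9.86% without 1 library. The T-box motif share (0.308%) was 0.969% in the 400 bp window, which holds more letters. The share of Ctrl-only regions over all genes (6.47%) was 5.86% at least 1 kb from other peaks, 12.4% over distal regions, 5.99% over gene bodies with 10 kb on either side, and 6.78 to 11.1% without 1 library. It was highest without Ctrl replicate 1, and in 2 such settings this share too moved by over 1.5 times. Without 1 library the lists of few regions moved by over 1.5 times, within their wide intervals except for T-box genes and second heart field: T-box genes 6.45 to 22.0%, endoderm 5.88 to 18.6%, ligands 5.88 to 14.8%, sarcomere 7.14 to 15.4% and ribosomal 1.33 to 4% (highest without Ctrl replicate 1), second heart field 3.23 to 11.5%, neural crest 5.26 to 10.9%, otic 14.3 to 24.5% and endothelium 11.9 to 21.7% (without Ctrl replicate 2), epithelial 10.3 to 17.2% (without cKO replicate 1) and branchiomeric 8.33 to 13.9% (without Mesp1-Cre replicate 1). Over gene bodies, T-box genes were at 4.76%, second heart field at 2.33% and ribosomal at 0. Lowering the Mesp1-Cre starts by 1 bp, an alternative chosen after seeing the data, moved none of the 16 values. No paired analysis was possible because no result comes from a test. Peak lists without depth or height limit every statement to called or not called.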
